A study of Mus musculus with 14 samples.

Results

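Cathepsins and their inhibitor cystatin C were followed here through 10 genes of sorted mouse microglia: Cst3, which encodes cystatin C, and Ctsa, Ctsb, Ctsc, Ctsd, Ctsf, Ctsh, Ctsl, Ctss and Ctsz. They were taken by their symbols, which the table gives in capitals (CST3, CTSA, CTSB, CTSC, CTSD, CTSF, CTSH, CTSL, CTSS and CTSZ), out of 14217 genes, keeping the transcript with the highest mean for each gene, and all 10 passed the filter on low values. The libraries came from C57BL/6 mice of 6 to 8 weeks, with no treatment, whose housing was either specific-pathogen-free (SPF, 7 libraries) or germ-free (GF, 7 libraries), the latter a state without any microorganisms. Cells had been sorted from each brain as CD11b-positive with low CD45, 1000 per brain, and 3' ends of their mRNA were sequenced. The comparison asks how the transcriptome of microglia differs when mice grow up without microbiota. The labels name no sex, cage, litter or library batch. They also do not say that every library is a separate animal, so p-values measure the spread between these libraries. In bulk samples, fewer cells of a type and less RNA per cell cannot be told apart.

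Cathepsins are proteases of endosomes and lysosomes, made as inactive precursors, carried to the lysosome and activated by cleavage in its acid interior. Most are cysteine proteases of the papain family, Ctsd encodes an aspartic protease and Ctsa a serine carboxypeptidase. Cystatin C is secreted and binds cysteine cathepsins tightly and reversibly, while leaving aspartic and serine proteases untouched. Microglia, the resident macrophages of the brain, express several of these genes strongly and use the proteases to break down engulfed material and to process antigen.

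Lysosomal genes often hold an E-box, CACGTG, near their start site, the core of the element that the transcription factor TFEB binds. The promoter windows of Ctsa and Ctsd are shown because they were the 2 of the 9 windows found for the members that held the longer form TCACGTGA, and those of Ctsc and Ctss because they held GAGGAAGT, a form of the site bound by PU.1, the master regulator of macrophages. Sequences are from RefSeq on GRCm38.p6, 250 bases before to 50 bases after a start site, 5′ to 3′ on the gene's strand, with capitals marking CACGTG, TCACGTGA and GAGGAAGT or its reverse complement. Ctsa lies at chr2:164833523-164833822 (plus strand), Ctsd at chr7:142387778-142388077 (minus strand), Ctsc at chr7:88277835-88278134 (plus strand) and Ctss at chr3:95526536-95526835 (plus strand).
Ctsa: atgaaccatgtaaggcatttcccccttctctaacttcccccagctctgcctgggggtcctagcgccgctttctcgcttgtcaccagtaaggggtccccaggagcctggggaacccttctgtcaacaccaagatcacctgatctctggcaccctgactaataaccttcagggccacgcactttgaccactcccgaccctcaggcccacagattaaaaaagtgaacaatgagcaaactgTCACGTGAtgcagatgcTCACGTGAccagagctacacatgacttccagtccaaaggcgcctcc
Ctsd: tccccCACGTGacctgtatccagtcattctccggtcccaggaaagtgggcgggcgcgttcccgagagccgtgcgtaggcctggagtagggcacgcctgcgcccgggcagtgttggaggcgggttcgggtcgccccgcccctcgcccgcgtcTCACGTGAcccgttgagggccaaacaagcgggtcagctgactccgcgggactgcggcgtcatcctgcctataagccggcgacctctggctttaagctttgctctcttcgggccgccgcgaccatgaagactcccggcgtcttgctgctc
Ctsc: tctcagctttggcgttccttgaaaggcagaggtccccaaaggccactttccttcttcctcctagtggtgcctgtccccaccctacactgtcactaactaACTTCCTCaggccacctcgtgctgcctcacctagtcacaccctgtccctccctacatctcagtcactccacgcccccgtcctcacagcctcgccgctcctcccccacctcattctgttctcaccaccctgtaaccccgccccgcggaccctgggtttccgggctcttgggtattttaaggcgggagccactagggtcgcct
Ctss: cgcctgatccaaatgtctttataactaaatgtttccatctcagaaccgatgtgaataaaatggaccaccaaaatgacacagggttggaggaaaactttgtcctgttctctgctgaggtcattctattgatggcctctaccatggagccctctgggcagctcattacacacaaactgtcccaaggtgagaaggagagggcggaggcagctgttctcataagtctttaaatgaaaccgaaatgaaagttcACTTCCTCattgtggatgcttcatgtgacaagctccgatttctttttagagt

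In the Ctsa window TCACGTGA began at bases 238 and 255 of the printed sequence, on either side of the start site. Ctsd held it at base 152 and a shorter CACGTG at base 6. Both strands were searched, the E-box forms read the same on both, and every TCACGTGA contains the shorter form. The 6-letter CACGTG occurred in 7.15% of 32817 promoter windows of this length, and in 4 of the 9 windows of the members, those of Ctsa, Ctsd, Ctsf and Ctsl. The 8-letter TCACGTGA occurred in 0.975% of all windows. TCACGTGA preceded by G and followed by C, in 0.326% of all windows, was in none of the 9. GAGGAAGT was in 3.20% of all windows, and among the members in those of Ctsc and Ctss, both as ACTTCCTC on the printed strand. The windows of Cst3 and Ctsz held none of the motifs searched. Windows were found for 8 of the 10 genes, with a further window without a match for Ctsa, and not for Ctsb and Ctsh. A match of letters is a description and not a site.

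Depth, as the library total over 1 transcript per gene divided by the value of 1 read, was 907568 to 1634679 read equivalents in SPF and 680082 to 1190253 in GF. Microglial markers were abundant in every library, with a sum over 10 genes of 43040 to 50265 normalized counts in SPF and 47287 to 53957 in GF. Sums for neurons (at most 28.3), monocytes (at most 148) and dendritic cells (at most 41.6) were low, and Cldn5, a defining gene of endothelial cells, was listed at 0 in all 14. Markers of border macrophages summed to 455 to 564 in SPF and 443 to 670 in GF, nearly all of it Stab1, with Mrc1 at most 31.9. Lymphocyte markers reached 112, nearly all of it Cd79b, astrocyte markers 255, nearly all Slc1a3, and oligodendrocyte markers 318, mostly Cnp and Mag. Endothelial markers, nearly all Pecam1, stood at 57.5 to 91.9 in SPF and 17.4 to 68.7 in GF. Of 8 neutrophil symbols only 3 were among the deposited genes, and S100a8, S100a9, Ngp, Ltf and Mpo were not. Camp and Retnlg were at or near 0. The sum, nearly all Elane, was 165 to 260 in SPF and 270 to 403 in GF, without overlap. Other sums also cover only the symbols found. These were 4 of 8 for lymphocytes, 6 of 8 for border macrophages, 5 of 7 for monocytes, 5 of 6 for dendritic and 4 of 6 for endothelial cells. Elane, a serine protease of neutrophil granules, rose by 0.65 on the log2 scale (limma adjusted p = 0.00273), in all 30 other settings too. Its part in the results was not tested. Some libraries stood apart: GF 1 held 1195 normalized counts of Cd74 and most of the monocyte and dendritic sums, GF 6 had the lowest depth and 1839 normalized counts over the erythroid genes, with globin genes of identical values counted once, against at most 61.3 in any other library, and SPF 2 had the lowest depth of its group. Of the 7 members that rose, 5 did so without those 3 libraries.

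In the values as deposited, cystatin C and most cathepsin genes were higher in germ-free microglia. Of the 10 genes, 7 rose, namely Cst3, Ctsd, Ctsa, Ctsb, Ctsz, Ctsh and Ctsf, by 1.24-fold to 1.5-fold. Ctsl and Ctss had smaller differences that did not pass, and Ctsc was the single gene with a lower mean in GF, by 0.51 on the log2 scale, which did not pass either. The test was limma on the log2 scale with Benjamini-Hochberg adjustment over all 8822 genes tested, at an adjusted p under 0.05, and a gene is said to have risen where it passed. Among all genes tested, 3.68% rose and 3.07% fell. The members are abundant, and of the 682 genes at least as abundant as the least abundant member, 18.6% rose and 5.13% fell. The median difference was 0.35 over the 10 genes, 0.12 over those 682 and -0.02 over all genes tested. Library totals as deposited also ran higher in GF, at 1108978.5 to 1202007.9 normalized counts against 1051575.3 to 1122174.3 in SPF. With equal totals, 4 of the 10 genes rose (Ctsz, Ctsb, Ctsa and Ctsd) and Ctsc fell.

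**Figure D1:**
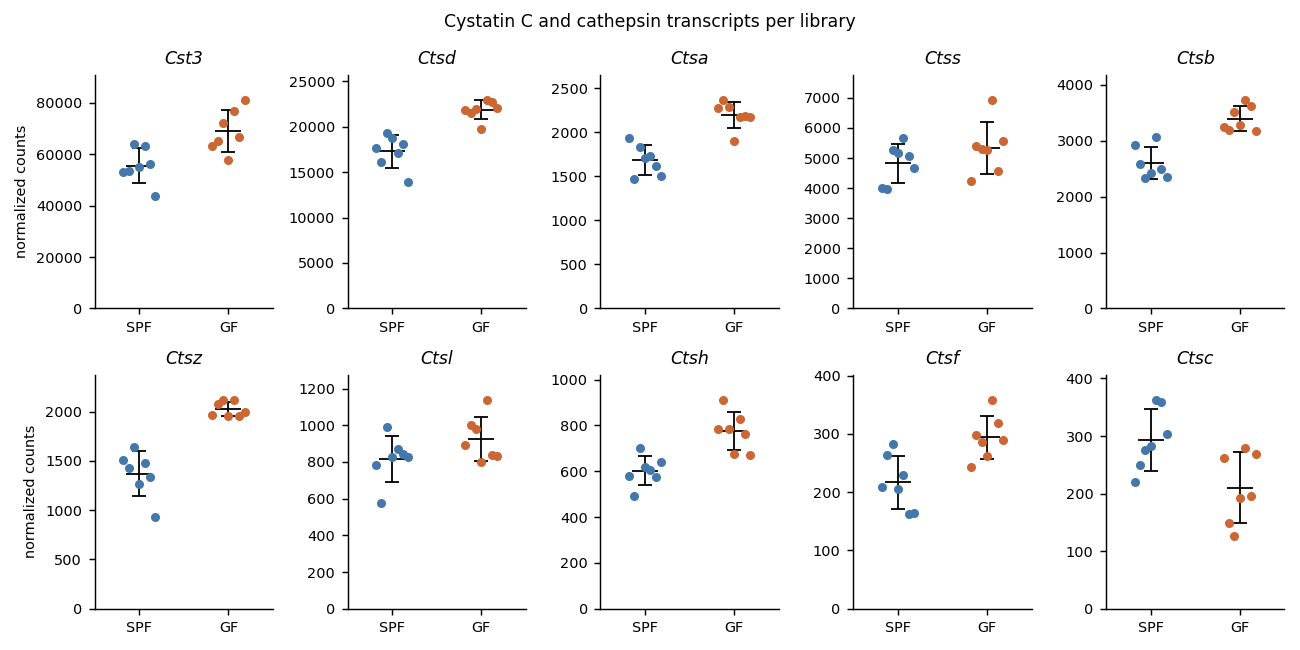
Normalized counts of the 10 genes (y axis, starting at 0, a separate scale for each gene) in 7 SPF and 7 GF libraries (points), with the mean and SD (black bars). GF libraries lie above all SPF libraries for Ctsd, Ctsb and Ctsz, the groups overlap for the other genes, and Ctsc has the lower mean in GF.

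The inhibitor was the most abundant transcript of every library. Cst3 ranged from 43718 through a median of 55181 to 64014 normalized counts in SPF, and from 57684 through 66510 to 81222 in GF. SPF 7 was the lowest and GF 7 the highest of all 14, and 5 of the 7 GF libraries stood above every SPF library. The means were 55556 ± 6851 and 68920 ± 8178 (n = 7 each, SD). On the log2 scale GF was higher by 0.31 ± 0.08 (SE, limma adjusted p = 0.0224). Cst3 alone took 5.06% ± 0.546 of the library total in SPF and 5.89% ± 0.576 in GF (n = 7 each, SD). The call of Cst3 was lost in 10 of 30 other settings, among them equal library totals (0.22, adjusted p = 0.0563), the omission of GF 5 or GF 7 (adjusted p = 0.0504 and 0.0528) or of GF 1, GF 6 and SPF 2 together (0.34, adjusted p = 0.0610), and the removal of trends with transcript length and GC content (0.06, adjusted p = 0.671). Quantile normalization set it to 0.00, as it must for a gene ranked 1 in all libraries.

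Ctsd was the most abundant cathepsin, ranked 3 or 4 in each library. It stood at 13852, 17684 and 19334 normalized counts in SPF (lowest, median, highest) and at 19786, 21983 and 22964 in GF. The groups did not overlap, and SPF 3 and GF 4 were the closest pair. The difference was 0.34 ± 0.07 on the log2 scale (SE, limma adjusted p = 0.00401), and the share of the library total was 1.58% ± 0.140 in SPF and 1.87% ± 0.0537 in GF (n = 7 each, SD). GF libraries differed little among themselves, with a coefficient of variation of 4.76% against 10.7% in SPF. Removing length and GC trends ended the call (0.18, adjusted p = 0.0822). Quantile normalization did too (0.03, adjusted p = 0.700), which was nearly fixed in advance for a gene ranked 3 or 4 in each library. A variance model without the mean trend also ended the call (adjusted p = 0.106). Without that trend, Ctsa and Ctsb missed the threshold too (adjusted p = 0.0737 each).

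Ctsa, whose product also holds the lysosomal enzymes neuraminidase 1 and beta-galactosidase in a complex, is listed under a pair of transcripts with identical values. Its SPF libraries ran from 1472 through 1702 to 1929 normalized counts and its GF libraries from 1904 through 2182 to 2369. GF 4 alone fell within the SPF range. The log2 difference was 0.39 ± 0.08 (SE, limma adjusted p = 0.00360). The genes of its partners, Neu1 and Glb1, had log2 differences of -0.12 and 0.11 that did not pass.

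**Figure D2:**
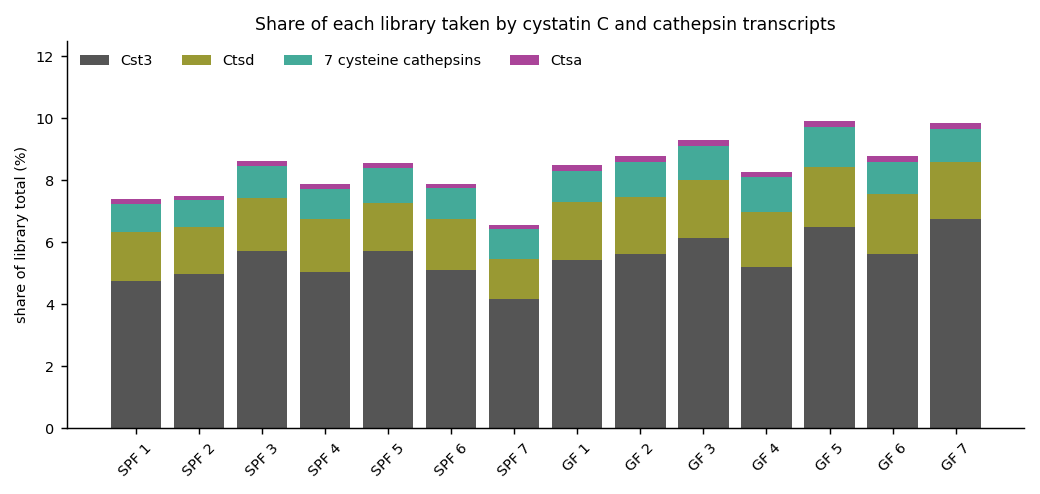
Share of the library total in percent (y axis) for Cst3, Ctsd, the 7 cysteine cathepsins and Ctsa, stacked for each of the 14 libraries (x axis). The stacks run from 6.56% to 8.61% in SPF and from 8.28% to 9.90% in GF, with Cst3 the largest part of each.

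Together the 10 genes made up 7.77% ± 0.708 of the library total in SPF and 9.06% ± 0.639 in GF (n = 7 each, SD). These ranges overlapped, with SPF 3 at 8.61% and SPF 5 at 8.55% above GF 4 at 8.28% and GF 1 at 8.50%. The 9 cathepsins without Cst3 took 2.40% to 2.91% in SPF and 3.08% to 3.42% in GF, and there the groups did not overlap. Ctsd, which by itself showed no overlap, was the largest part of that sum, at a mean of 1.58% in SPF and 1.87% in GF. The 7 cysteine cathepsins took 0.890% to 1.11% in SPF and 1.003% to 1.30% in GF, with overlap. No test was made on these sums, whose members were chosen with earlier results known. Shares were taken over 1 transcript per gene. The libraries came from 3' ends, where a transcript's reads need not grow with its length. Per kilobase of transcript, the mean value was 72370 for Cst3, 9193 for Ctsd, 3748 for Ctss and 1179 for Ctsz, followed by 765 for Ctsa, 632 for Ctsb, 442 for Ctsl, 426 for Ctsh, 129 for Ctsf and 101 for Ctsc. Without length, Ctsb stood above Ctsa and Ctsz, at 0.237% of the total in SPF against 0.153% and 0.125%.

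Among the cysteine cathepsins, Ctsz, a carboxypeptidase also called cathepsin X, had the largest rise of the 10 genes. Its 7 SPF values were 1513, 1425, 1641, 1268, 1480, 1341 and 933 normalized counts from SPF 1 to SPF 7, and its GF values were 1969, 2073, 2117, 1957, 2120, 1958 and 1996 from GF 1 to GF 7. Every GF library stood above every SPF library, and the GF libraries were close to one another, with a coefficient of variation of 3.65% against 16.6% in SPF, where SPF 7 was low. The log2 difference was 0.58 ± 0.10 (SE, limma adjusted p = 0.000440), or 1.5-fold, and the call held in all 30 other settings, between 0.36 and 0.63.

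Ctsb, which encodes an endopeptidase that also trims dipeptides from protein ends, likewise showed no overlap in the values as deposited. SPF libraries stood at 2331, 2503 and 3071 normalized counts (lowest, median, highest) and GF libraries at 3183, 3282 and 3736. SPF 5 was the highest of its group and lay just below GF 7. The difference was 0.39 ± 0.08 on the log2 scale (SE, limma adjusted p = 0.00273). With Ctsd and Ctsz, 3 of the 10 genes had all GF libraries above all SPF libraries in these values, which held for 1.28% of all genes tested. No such share was taken over abundant genes alone. As shares of the library total, Ctsd and Ctsz still showed no overlap. Ctsb did overlap, with SPF 5 at 0.278% above GF 2 at 0.274% and GF 7 at 0.265%. None had all GF libraries below all SPF libraries, which held for 0.895% of all genes tested.

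Ctsh, which encodes an aminopeptidase, and Ctsf rose with some overlap. For Ctsh the values were 493, 606 and 702 normalized counts in SPF and 672, 783 and 911 in GF, and SPF 3 alone reached into the GF range. Its log2 difference was 0.36 ± 0.09 (SE, limma adjusted p = 0.0203), which failed to pass in 7 of 30 settings, such as without GF 2 (adjusted p = 0.0523) and without GF 1, GF 6 and SPF 2 together (0.31, adjusted p = 0.105). Ctsf, one of the least abundant members, stood at 163, 210 and 282 in SPF and at 244, 289 and 358 in GF. SPF 2 and SPF 3 lay within the GF range. The difference of 0.45 ± 0.13 (SE, limma adjusted p = 0.0378) did not pass in 17 of 30 settings. Leaving out SPF 1, SPF 4, SPF 6, SPF 7, GF 2, GF 3, GF 5, GF 6 or GF 7 each ended it, at adjusted p between 0.0549 and 0.0901.

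Ctss and Ctsl overlapped widely between groups. Ctss encodes a protease that stays active at neutral pH and trims the class II invariant chain, and it is the most abundant cysteine cathepsin here, ranked 11 to 22. Its SPF libraries stood at 3965, 5073 and 5661 normalized counts (lowest, median, highest) and its GF libraries at 4253, 5292 and 6942. GF 5 was the only GF library above all of SPF. The log2 difference of 0.14 had a 95% confidence interval from -0.06 to 0.34 (limma adjusted p = 0.432). Ctsl, which encodes an endopeptidase of lysosomes, gave 574, 827 and 989 in SPF and 800, 893 and 1138 in GF. SPF 1 and SPF 2 lay below the GF range, GF 2 and GF 5 above the SPF range and the other 10 libraries between, and the difference was 0.19 with an interval from -0.03 to 0.41 (limma adjusted p = 0.313). The rise of Cst3 (0.31) lay within the interval of Ctss, and that of Ctsh (0.36) just above it. Both lay within the interval of Ctsl. Cd74, the invariant chain gene, stood at 79.7 to 140 in 6 GF libraries and at 1195 in GF 1, and did not pass (log2 difference 0.88, limma adjusted p = 0.197, unadjusted p = 0.0373).

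Ctsc was the exception in direction. It encodes dipeptidyl peptidase I, a cathepsin that removes dipeptides and activates the serine proteases of immune granules. Its SPF values were 219, 250, 275, 283, 363, 358 and 304 normalized counts from SPF 1 to SPF 7, and its GF values were 261, 148, 126, 192, 280, 196 and 269 from GF 1 to GF 7. GF 2, 3, 4 and 6 lay below every SPF library, and SPF 4, 5, 6 and 7 above every GF library. The log2 difference of -0.51 ± 0.17 (SE) missed the threshold (limma adjusted p = 0.0604, unadjusted p = 0.00463). It passed in 12 of 30 settings, among them equal library totals (-0.60, adjusted p = 0.0253), the replicate number as a block (adjusted p = 0.0433), the abundance filter at 20 times the pseudocount (adjusted p = 0.0464), and when SPF 1, GF 1, GF 5 or GF 7 was left out (adjusted p from 0.0357 to 0.0471). It was negative in all 30. With length and GC trends removed it was -0.34 (adjusted p = 0.232).

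**Figure D3:**
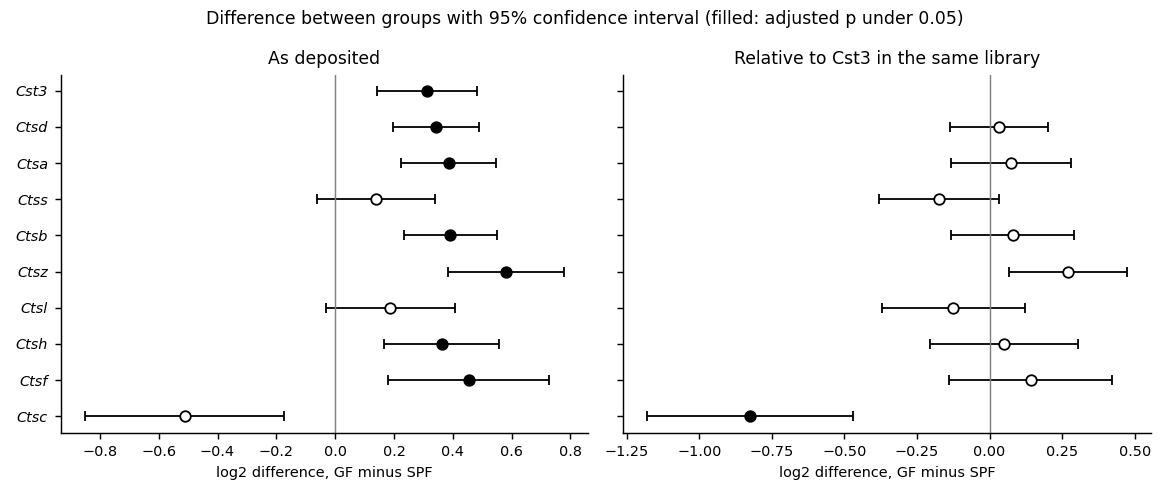
Log2 difference between GF and SPF (x axis, GF minus SPF) for each gene (y axis) with its 95% confidence interval, for the values as deposited (left) and relative to Cst3 in the same library (right); filled points have an adjusted p under 0.05. On the left 7 genes are filled and positive, and on the right only Ctsc is filled, at -0.82.

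Whether a cathepsin changed by another amount than its inhibitor was tested by taking every gene relative to Cst3 in the same library, which removes the scale of the library. On that scale 0.340% of genes tested were higher and 12.2% lower in GF, since Cst3 itself rose. None of the 9 cathepsins was called higher and Ctsc was called lower, with a log2 difference of -0.82 ± 0.17 (SE, limma adjusted p = 0.00306). With 1 of 9 lower, the cathepsins stood near the share of all genes. The value joins the difference of Ctsc as deposited, -0.51, which did not pass, with the rise of Cst3 by 0.31. The relative call of Ctsc was lost with length and GC trends removed (-0.41, adjusted p = 0.175). Ctsz had a relative difference of 0.27, with a 95% confidence interval from 0.07 to 0.47 before adjustment (limma adjusted p = 0.0679), and it passed without GF 7 (0.31, adjusted p = 0.0438). Relative differences of the other 7 lay between -0.17 for Ctss and 0.14 for Ctsf, with intervals that all included 0. Ctsb, at 0.08, passed relative to Cst3 after length and GC trends were removed (0.42, adjusted p = 0.00601). Quantile normalization is no test against Cst3, since it holds Cst3 at 1 value in every library.

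Ratios within a library show the same values without scale. Cst3 counts per cysteine cathepsin count were 5.17 ± 0.394 in SPF and 5.33 ± 0.541 in GF (n = 7 each, SD), with SPF 7 lowest at 4.41 and GF 7 highest at 6.34. The Ctsd count was 31.2% ± 2.34 of that of Cst3 in SPF and 32.0% ± 2.83 in GF. These ratios overlapped between groups. By contrast, Ctsc was 14.5% to 32.6% of Ctsz in SPF and 5.93% to 13.5% in GF, so that the GF libraries all stood below the SPF libraries. This pair was chosen after its values were seen. Ctss counts per Ctsb count ran from 1.37 to 2.26 in SPF and from 1.27 to 1.86 in GF.

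Within a group, libraries tended to be high or low in several of these genes at once. Highest and lowest places were not counted over all genes, so the pattern cannot be called particular to these 10. GF 5 held the highest GF value for 7 of the 10 genes, those other than Ctsa, Ctsh and Cst3, and GF 4 the lowest for 5. In SPF, SPF 3 was the highest in 6 genes, SPF 2 the lowest in 4 (Ctsh, Ctsl, Ctss and Ctsa) and SPF 7 the lowest in 3 (Ctsz, Ctsd and Cst3). These are values as deposited, and SPF 3 had the highest library total of its group, SPF 7 and GF 4 the lowest of theirs. As shares of the total, SPF 3 lost the highest place for Cst3 and GF 5 for Ctsz, and both kept it for their other genes. SPF 2 was then not the lowest for Ctss, nor GF 4 for Ctsl and Ctsz. Over the 10 genes the coefficient of variation was 9.89% to 21.0% in SPF and 3.65% to 29.1% in GF, in each group among the largest for Ctsc, at 18.2% and 29.1%.

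Transcript GC content separated the members that rose from those that did not. The 3 genes that did not rise had the lowest GC content, 43.9% for Ctsc, 44.7% for Ctsl and 45.9% for Ctss. The 7 genes that rose had 49.2% for Ctsb, 51.2% for Ctsh and 55.7% to 57.3% for Ctsa, Ctsd, Ctsf, Cst3 and Ctsz. Among these 7 the order differed: Cst3, at 57.2%, had the smallest rise (0.31), while Ctsb, lowest in GC, rose by 0.39. Over all genes tested with a known GC content, split by GC into 4 bins of equal size, the median log2 difference was -0.22 in the lowest bin (25% to 46.4% GC), -0.08 and 0.06 in the middle bins and 0.13 in the highest (55.4% to 70% GC). In the lowest bin 0.875% of genes rose, against 6.96% in the highest. With the trends of each library with length and GC removed, 3 of the 10 genes were called higher, Ctsb at 0.48, Ctsz at 0.36 and Ctsa at 0.25, and Ctsl and Ctss stood at 0.31 and 0.20.

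**Figure D4:**
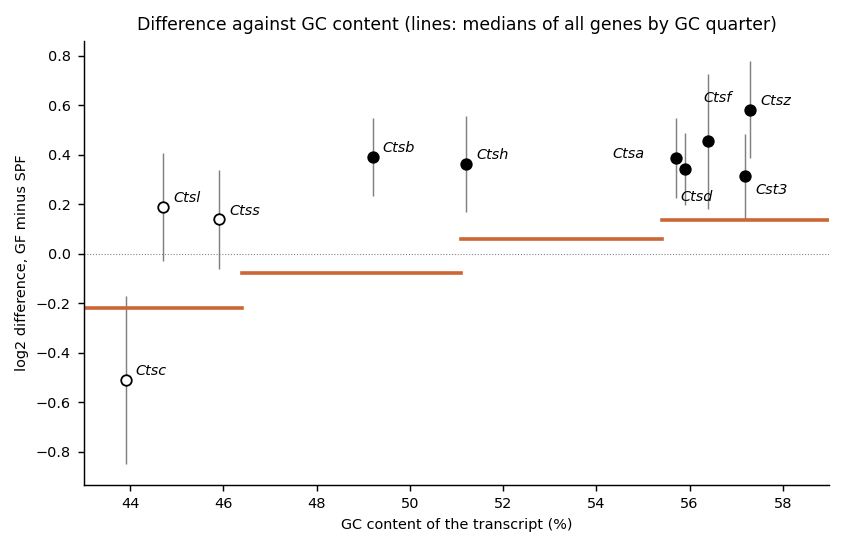
Log2 difference between GF and SPF (y axis) against GC content of the transcript in percent (x axis) for the 10 genes, with 95% confidence intervals; filled points have an adjusted p under 0.05. Horizontal lines are the medians of all genes tested in 4 GC bins of equal size, from -0.22 in the lowest to 0.13 in the highest, and Ctsc, Ctsl and Ctss lie in the lowest bin.

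Other genes of the pathway moved in part. Among transcription factors of the MiT/TFE family, which drive lysosomal genes, Tcfeb, now Tfeb, rose. It stood at 42.4, 57.2 and 85.0 normalized counts in SPF (lowest, median, highest) and at 78.7, 105 and 139 in GF, with a log2 difference of 0.87 ± 0.18 (SE, limma adjusted p = 0.00398). The call held in all 30 other settings. Tcfe3, now Tfe3, stood at 231 ± 53.5 and 237 ± 32.3 and Mitf at 14.7 ± 7.37 and 11.9 ± 9.48 (n = 7 each, SD), and neither passed.

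Of 19 genes tested for the sorting of hydrolases, lysosomal membrane proteins and cofactors, 6 rose and 0 fell, against 3.68% and 3.07% of all genes, with a median difference of 0.27. Lamp1, an abundant lysosomal membrane protein, rose from 1316 ± 79.2 to 1801 ± 168 (n = 7 each, SD). Sorl1, a sorting receptor of the endosome, rose from 52.7 ± 16.2 to 92.1 ± 16.6, a log2 difference of 0.82 ± 0.19 (SE, limma adjusted p = 0.00899). Grn, the gene of progranulin, whose fragments act in lysosomes, rose from 4197 ± 618 to 5349 ± 592, and did not pass in 4 of 30 settings, one of them without GF 1, GF 6 and SPF 2 (adjusted p = 0.0890). Gga2, which encodes an adaptor that recruits mannose 6-phosphate receptors, rose by 0.95 from 17.0 counts, but not in 14 of 29 settings. Leaving out SPF 2, SPF 3, SPF 4, SPF 6, SPF 7, GF 3, GF 4, GF 5 or GF 6 each ended its call, with the highest adjusted p at 0.0800 for GF 6. The other pair, Psap and Scarb2, rose by 0.30 and 0.50 (limma adjusted p = 0.0390 and 0.0473), and did not pass in 19 and 23 of 30 settings. Leaving out 1 library ended the call of Psap in 10 of 14 cases and that of Scarb2 in 12 of 14. The number that rose was 2 without GF 1, GF 6 and SPF 2, and 3 when SPF 3, SPF 4, SPF 6, GF 3 or GF 5 was left out.

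No gene passed in the lists of other cathepsins, lysosomal peptidases and inhibitors. Of the 6 further lysosomal peptidases tested, 0 rose and 0 fell, and the smallest p was that of Tpp1, tripeptidyl peptidase 1 (500 ± 50.4 in SPF against 447 ± 22.9 in GF, limma adjusted p = 0.341, unadjusted p = 0.108). Ctso, the only other cathepsin abundant enough to be tested, stood at 35.2 ± 10.01 and 22.9 ± 7.94 (limma adjusted p = 0.20, unadjusted p = 0.0387), while Ctse, Ctsk and Ctsw had values of at most 12.49. Of the cystatins, Cstb, the intracellular stefin B, stood at 70.9 ± 11.1 and 64.9 ± 18.6 (limma adjusted p = 0.677, unadjusted p = 0.410) and Cst7, cystatin F, at 14.9 and 14.3, and 0 of these 2 passed. None of the 6 partner and substrate genes passed, which include Neu1, Glb1 and Cd74.

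**Figure D5:**
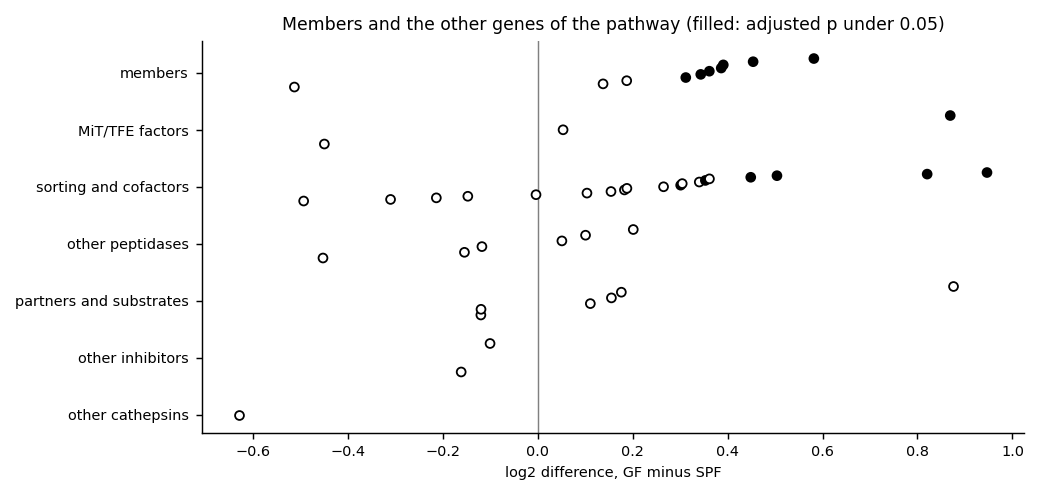
Log2 difference between GF and SPF (x axis) for every tested gene of the 10 members and of the 6 other lists (y axis); filled points have an adjusted p under 0.05. Among the members 7 of 10 are filled, among the sorting and cofactor genes 6 of 19 and among the MiT/TFE factors 1 of 3, while none is filled in the other 4 lists.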

How the data were processed

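For these 3' end libraries of sorted microglia, the submitters' processing notes name TopHat and the build mm9. No source used here names the counter, the scaling or the use of strand. The authors deposited a never negative signal per RefSeq transcript, called normalized counts here. Per library, 84.0% to 86.2% of positive values came out whole, within 0.01 of a read, when divided by the library's own step. That share was too low for a count model. Depth is the total divided by that step. Of 18487 rows, the one with the highest mean was kept for each of 14217 genes, and shares are over their sum.

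Values were taken as log2(value + 1.44), and 8822 genes with a mean of at least 7.22 were tested with limma 3.58.1 in R 4.3.3 (mean trend, group as the only term, two-sided, Benjamini-Hochberg adjustment, threshold 0.05). The added 1.44 understates changes of low genes. Groups came from the sample titles. Adjusted p-values are from this model, except where another setting, omitted libraries or values relative to Cst3 are named, each refitted with limma. Lengths and GC content are from GENCODE M21, found for 13893 genes. Genes named are all 10 members and, from each other list, up to 4 that passed with the smallest p, or the one with the smallest p, and all tested MiT/TFE factors; any other gene named was chosen after its values were seen. The members and the lists were chosen with earlier results of these data known. Alternatives covered the pseudocount, filter, scaling, spread model, rows, a replicate block and omitted libraries.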

Additional observations from a re-analysis of the deposited data

Results flagged for a closer look

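Among the values of the named genes and the sums over members, tested in 70 groups of 7 libraries, 8 held a library far from the other libraries of its group; chance alone flags about 1 in 20 groups. Ctsa in GF 4 was low, at 1904 normalized counts against 2175 to 2369 in the other GF libraries. GF 5 was high in the share of the library taken by the 9 cathepsins, 3.42% against 3.08% to 3.18%, and in that of the 7 cysteine cathepsins, 1.30% against 1.003% to 1.121%. SPF 7 had the fewest Cst3 counts per cysteine cathepsin count, 4.41 against 5.11 to 5.60. SPF 1 was high in Grn, at 5540 normalized counts against at most 4184, and in Sorl1, at 84.4 against at most 58.5. Psap in GF 7 was low, at 1326 normalized counts against 1627 to 1844 in the other GF libraries. GF 1 was high in Cd74, at 1195 against at most 140.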

How the results depend on the processing

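Of the members, Ctsz was called in all 30 other settings, Ctsb and Ctsa in 29, Ctsd in 27, Ctsh in 23, Cst3 in 20 and Ctsf in 13, while Ctsl and Ctss were called in none. The losses of Cst3 and Ctsd under quantile normalization are counted here, though their ranks fixed or nearly fixed that outcome. Removing length and GC trends, and a total without Cst3, were chosen after seeing the data.

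Scaling to equal totals gave 214 genes higher and 426 lower, with 4 members higher and 1 lower and 3 sorting and cofactor genes higher, and moved the median of all genes from -0.02 to -0.10. Without the mean trend there were 160 and 161 genes, 1 member and 3 sorting genes, and relative to Cst3 13 genes were higher. With length and GC trends removed 209 genes and 3 members were higher; relative to Cst3 the counts were 93 higher and 220 lower, with 1 member higher and 0 lower. Quantile normalization, which leaves Ctsd little room to differ, gave 3 members higher and 1 lower. It holds Cst3 constant, so its counts relative to Cst3 (260 and 283 genes, 3 members higher) are no test against Cst3. A total without Cst3 gave 4 members higher, 1 lower and 3 sorting genes. Without GF 1, GF 6 and SPF 2 there were 154 and 166 genes, 2 sorting genes and, relative to Cst3, 11 genes higher. No filter left 2 sorting genes. Ctsc made 1 member lower with the filter at 20 times the pseudocount, upper-quartile scaling, a total without the 100 most abundant genes, sample weights and the replicate block. The cause was not tested. Over all deposited rows the 10 genes took 6.06% in SPF and 7.14% in GF and Cst3 3.95% and 4.64%; without the 100 most abundant genes in the total, 11.8%, 14.2%, 7.67% and 9.24%.

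Leaving out single libraries gave 242 to 337 genes higher and 171 to 291 lower (171 without SPF 7), 5 to 7 members higher and 0 to 1 lower, and 3 to 6 sorting genes higher. Relative to Cst3 it gave 18 to 35 genes higher, 586 to 1327 lower (586 without SPF 7), and 0 to 1 members higher and 1 lower.

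Tcfe3, at 0.05, turned to -0.038 with equal totals, -0.035 with quantile normalization, -0.086 with trends removed and -0.026 with a total without Cst3, and ran from -0.010 (without SPF 7) to 0.15 with single libraries left out. Cst7, at -0.10, turned to 0.099 with quantile normalization and ran from -0.37 (without SPF 3) to 0.13 (without GF 5). Relative to Cst3, quantile normalization and the removal of trends turned Ctsl to 0.019 and 0.25 and Ctss to 0.044 and 0.14. Also relative to Cst3, Ctsh turned to -0.0255 and Ctsd to -0.022 without GF 1, GF 6 and SPF 2. With single libraries left out, this relative difference of Ctsh ran from -0.0022 (without GF 2) to 0.12 and that of Ctsd from -0.0022 (without SPF 5) to 0.070.

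Same-numbered libraries deviated from their group means with correlations of -0.056 to 0.047 over 7 pairs, and none correlated best with its own number. No pairing by number was seen, though a weak one would not show here. The replicate block gave 286 genes higher and 241 lower, with 7 members higher and 1 lower.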
